A study of Mus musculus with 12 samples.

Results

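Eosinophils are granulocytes whose granules hold a few highly basic proteins, and 9 genes that define them were followed here in mouse bone marrow progenitors that had received a microRNA. The genes were taken by name from the deposited expression tables, and all 9 were found among the 48709 genes listed. They are Prg2, Prg3, Epx, Ear1, Ear2 and Ear6, which encode granule proteins, and Siglecf, Ccr3 and Il5ra, which encode receptors on the cell surface. The cells were hematopoietic stem and progenitor cells (HSPC) of wild-type (WT) mice, taken from bone marrow. These sorted cells received a control miRNA (control miR), miR184 or miR499 by transfection, and RNA was taken for sequencing after 2 days. Of the 12 libraries, control miR has 6, miR184 has 3 and miR499 has 3. Each miRNA has a table with its own controls, numbered 1 to 3 beside miR184 and 4 to 6 beside miR499, and comparisons stayed within a table. Whether the replicates are separate animals or cultures is not stated in the labels. The p-values therefore reflect variation among these libraries, part of which may be technical.

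Eosinophils arise in bone marrow from myeloid progenitors under GATA and C/EBP transcription factors, and IL-5 drives their expansion and survival. The granule proteins are made early, while the cell is still a dividing progenitor, and Prg2 is also transcribed in mast cell and basophil precursors. The eotaxin receptor Ccr3 and the inhibitory lectin Siglecf are surface proteins of the mature cell, although Siglecf is also carried by some macrophages. A miRNA pairs through its seed, bases 2 to 8, with matching sites, mostly in 3' untranslated regions, and lowers the transcripts that carry them.

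The mature miRNAs are shown because the search for sites among the 9 genes rests on their seeds, which are in capitals (RefSeq, GRCm38.p6). The labels do not say which arm was transfected, and the arms shown are the 3p arm of miR-184 (chr9:89802263-89802284, minus strand) and the 5p arm of miR-499 (chr2:155622893-155622913, plus strand).
miR-184-3p: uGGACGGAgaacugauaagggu
miR-499-5p: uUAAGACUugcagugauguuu

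None of the 9 genes had a site for miR-184-3p in its longest annotated 3' untranslated region, and 5.13% of the 16155 genes with such a region and a value above 0 had one. For miR-499-5p, Siglecf had 1 site and Il5ra had 2, and 16.7% of the same genes had at least 1. A site was a match to the whole seed, or to all of it but base 8 with an A opposite base 1. The Siglecf site and the first Il5ra site are of the latter kind and are printed with the match and that A in capitals. They lie at chr7:43359017-43359045 on the plus strand and at chr6:106711672-106711700 on the minus strand (GRCm38, GENCODE M21).
Siglecf site: taatcacaaggGTCTTAAtcatgaggagt
Il5ra first site: actgtgcctgtGTCTTAAagcataaggta
For the other arms, miR-184-5p had 3 sites in Ccr3 and 1 in Il5ra, against 11.9% of genes with at least 1, and miR-499-3p had 1 site in Ccr3, against 19.5%. A site is a match of letters and not a measured target.

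Levels are given as RPKM, reads scaled to the gene's exon length and to the library's total, which allows genes to be compared per length. Among the 9 genes Prg2 had the highest median over the 12 libraries, 141 RPKM, followed by Prg3 at 10.2 and Siglecf at 2.92. Ear2 (1.04), Ear6 (0.912) and Epx (0.733) followed with ranges that overlapped each other. Il5ra (0.481), Ear1 (0.331) and Ccr3 (0.0119) were lowest. Only Prg2, Prg3 and Siglecf were above 0 in every library. Ccr3, the receptor for eotaxins, had between 0 and 10 reads per library and was at 0 in 4 of 12. The receptor that defines the mature cell, Ccr3, was thus at or near 0 where Prg2 was high, and the word eosinophil stands here for the genes and not for a cell shown to be present.

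**Figure D1:**
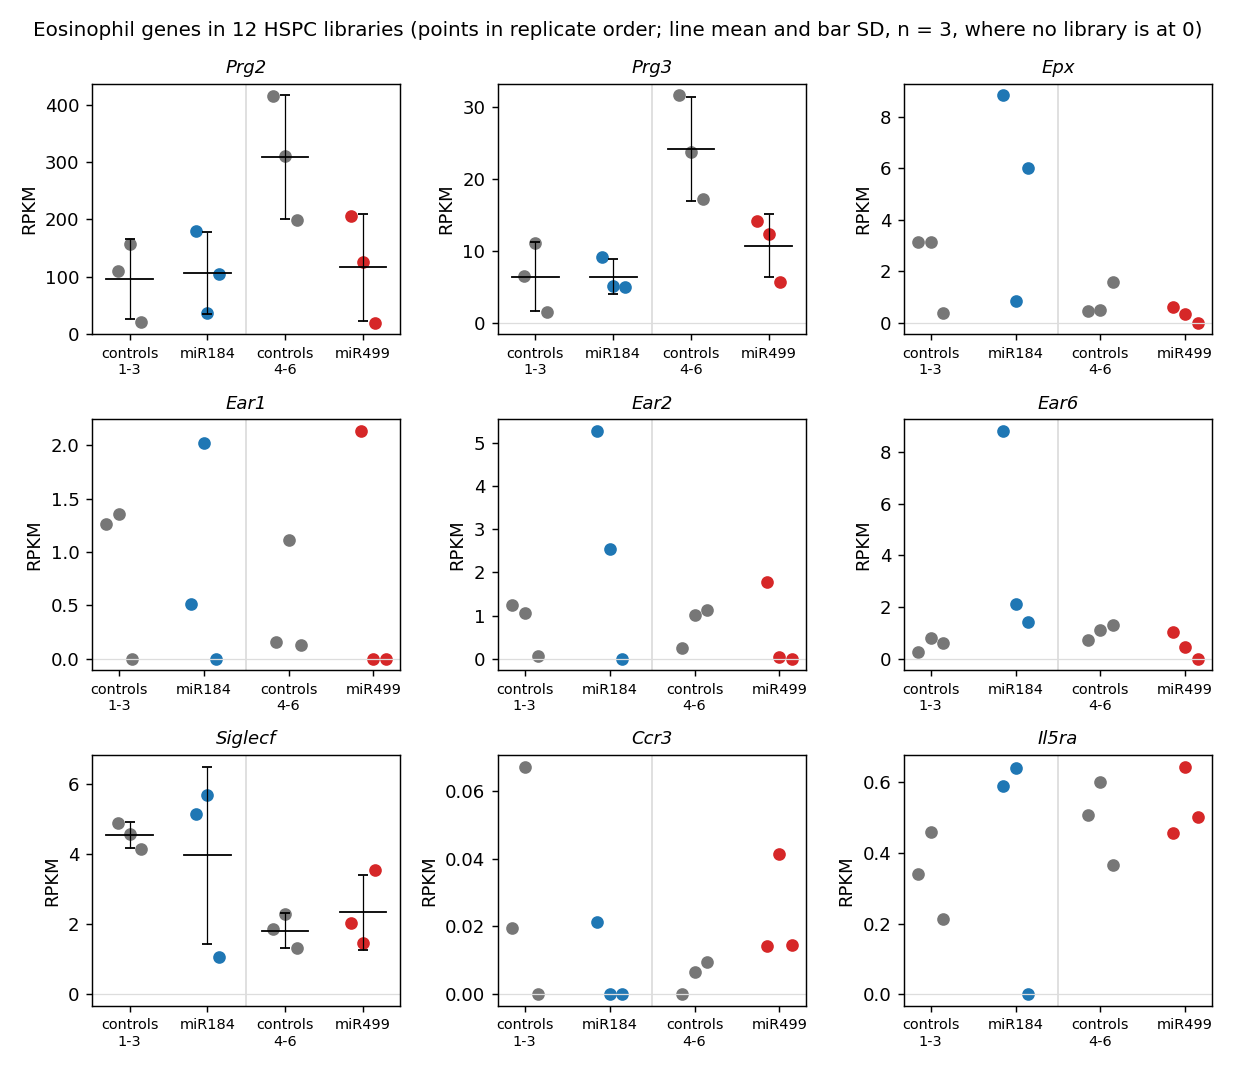
Level in RPKM (vertical axes) of each of the 9 genes in the 12 libraries, by group (horizontal axis), with points in replicate order and, for the 3 genes above 0 in every library, a line at the mean and a bar of 1 SD (n = 3). Prg2 spans 19.6 to 416 RPKM, and the third control and the third miR499 library are the lowest for it in their tables.

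Libraries held 31990355 to 46601798 reads, recovered from the RPKM values. A gene with 0 reads could still have had 3, for counting error alone. At these totals 3 reads correspond to an RPKM of 0.0768 to 0.112 for Prg2, 0.0882 to 0.128 for Ear1 and 0.0180 to 0.0262 for Il5ra. One treated library in each table stood apart. In miR184 3, 13675 genes were above 0, while its 5 table mates had 16702 to 17136. Of 2050 genes with at least 10 reads in each of those 5 and under 100 on average, 605 (29.5%) were at 0 in miR184 3, Il5ra among them. The library miR499 3 had a summed RPKM of 391857, against 465018 to 483368 in the other 5 of its table. There 14 of 2036 such genes (0.688%) were at 0, and 2 of the 14 were Epx and Ear6. Changes of the tested members within each table are therefore given with and without these libraries. Spreads, ratios, marker sums and correlations include them.

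Prg2 encodes major basic protein, the main protein of the granule core. In the miR184 table it stood at 110 RPKM, 157 RPKM and 20.6 RPKM in controls 1 to 3 and at 179.8 RPKM, 36.9 RPKM and 104 RPKM in miR184 1 to 3. The groups overlapped, with control 3 lowest and miR184 1 highest. The change was 0.31 ± 0.82 (SE) on the log2(RPKM + 1) scale, with an adjusted p of 0.911 in limma. Its sign depended on single libraries, being -0.57 without control 3 and -0.20 without miR184 1. Without miR184 3 the change was 0.19 ± 0.95 (SE).

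In the miR499 table Prg2 stood at 416 RPKM, 310.4 RPKM and 199.6 RPKM in controls 4 to 6 and at 206 RPKM, 125 RPKM and 19.6 RPKM in miR499 1 to 3. The control mean was 309 ± 108 RPKM (SD, n = 3) and the miR499 mean 117 ± 93.3 RPKM (SD, n = 3). The groups overlapped only through miR499 1, which lay just above control 6. The log2 change was -1.87 ± 0.81 (SE), with a 95% interval from -3.79 to 0.06 and an adjusted p of 0.493 in limma. Without miR499 3 it was -0.88 ± 0.29 (SE) with an adjusted p of 0.0649 in limma, so the size of the change rested largely on that library.

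Prg3 is a paralogue of Prg2 that also encodes a basic granule protein. It stood at 6.56 RPKM, 11.1 RPKM and 1.53 RPKM in controls 1 to 3 and at 9.19 RPKM, 5.09 RPKM and 4.92 RPKM in miR184 1 to 3. Both groups averaged 6.40 RPKM and overlapped, and the log2 change was 0.22 ± 0.54 (SE), with an adjusted p of 0.904 in limma. Its sign also turned without control 3, to -0.42, and without miR184 1, to -0.03. Without miR184 3 the change was 0.36 ± 0.61 (SE).

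With miR499, Prg3 stood at 31.7 RPKM, 23.8 RPKM and 17.2 RPKM in controls 4 to 6 and at 14.1 RPKM, 12.4 RPKM and 5.72 RPKM in miR499 1 to 3. All 3 miR499 libraries lay below all 3 controls, at means of 10.7 ± 4.42 and 24.2 ± 7.26 RPKM (SD, n = 3). The log2 change was -1.15 ± 0.35 (SE), with a 95% interval from -1.98 to -0.32, an unadjusted p of 0.0138 and an adjusted p of 0.491 in limma, so Prg3 did not pass. It was the only one of the 3 genes tested in that table whose groups did not overlap with miR499 lower, which held for 12.8% of the 9815 genes tested. With 3 libraries a side, the smallest p an exact test can give is 0.1, so single genes rest on the spread that limma pools.

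Without miR499 3, chosen because that library stood apart, Prg3 fell by 0.79 ± 0.20 (SE) on the log2 scale, with an adjusted p of 0.0328 in limma. In that setting 17.1% of all genes tested passed, 13.7% with a lower level. With the libraries also rescaled by median ratios Prg3 fell by 0.75 (adjusted p = 0.0424 in limma), where 14% of genes passed and 9.27% passed with a lower level. In bulk RNA, fewer cells of a type and less of a transcript per cell cannot be told apart.

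Prg2 and Prg3 are neighbours on chromosome 2, at chr2:84980461-84983632 and chr2:84988215-84993886 on the plus strand (GRCm38), with 4582 bases between them. Their coding sequences are 64.1% identical, and no stretch of 50 bases of either transcript occurs in another gene, so their reads can be told apart at that length. Each was the gene most like the other among 9566 genes, with a Pearson r of 0.927 over the 12 libraries after each table's mean was subtracted. The libraries share depth and preparation, and r is given as a description. The ratio of Prg2 to Prg3 was 13.4 to 16.8 in controls 1 to 3 and 11.6 to 13.1 in controls 4 to 6. It ranged more widely with miR184, from 7.25 to 21.1, and with miR499, from 3.43 in miR499 3 to 14.6.

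The promoter of Prg3 is printed because Prg3 passed in the setting above and GATA factors act in this lineage. It runs from 250 bases before the start to 50 bases after it (RefSeq, GRCm38.p6, chr2:84987965-84988264, plus strand), and the capitals mark 2 matches to GATAA on the minus strand, read as TTATC.
Prg3 promoter: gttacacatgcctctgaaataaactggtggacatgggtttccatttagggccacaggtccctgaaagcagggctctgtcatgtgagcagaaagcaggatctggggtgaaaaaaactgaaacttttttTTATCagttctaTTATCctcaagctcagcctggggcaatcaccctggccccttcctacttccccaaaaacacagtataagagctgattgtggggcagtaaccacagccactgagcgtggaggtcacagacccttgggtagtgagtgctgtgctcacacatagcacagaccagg
Of the 8 members with a promoter in the table, which are all but Prg2, 7 held GATAA on either strand and Epx did not, against 25.4% of 32851 promoters of the same length. The other motifs searched on both strands were TTNCNNAA, found in 6 of 8 against 40.7%, and GAGGAA, found in 3 of 8 against 28.3%. Ear1, Ear2 and Ear6, described below as close copies, each held 1 GATAA, 1 TTNCNNAA and 0 GAGGAA. The 8 promoters may therefore not be independent of each other, and these counts were not tested. A match says nothing of whether a factor was bound.

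**Figure D2:**
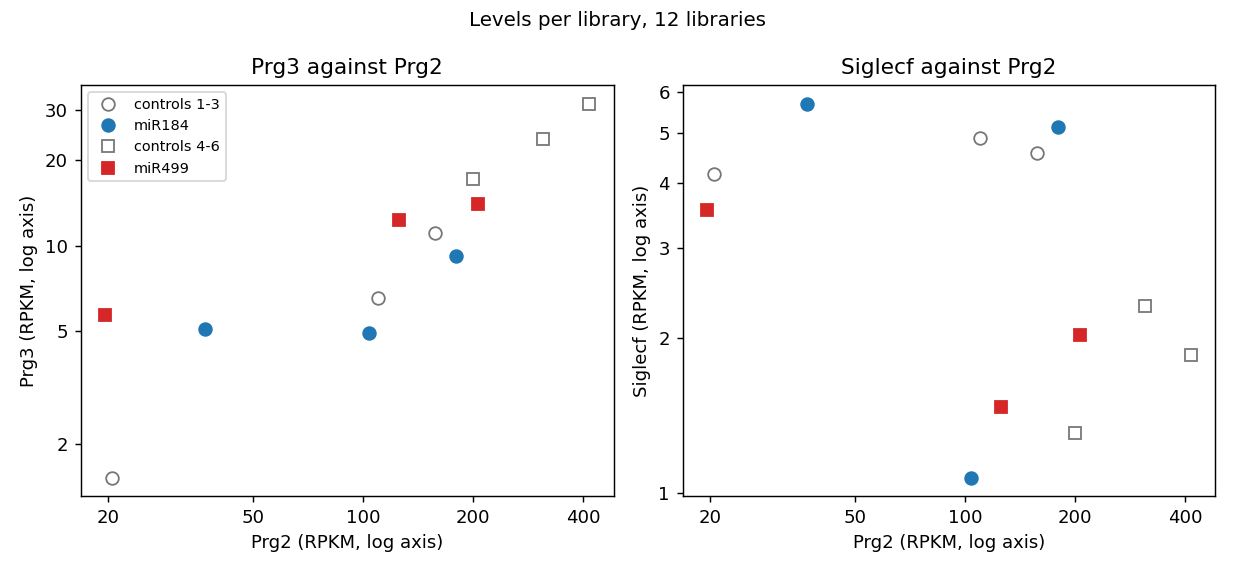
Level of Prg3 (left) and of Siglecf (right) against that of Prg2, in RPKM on log axes, with one point per library (12 libraries, 4 groups). Prg3 follows Prg2 across libraries, while the library with the lowest Prg2 in the miR499 table, miR499 3, has the highest Siglecf of that table at 3.54 RPKM.

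Epx encodes eosinophil peroxidase, the haem enzyme of the granule matrix. It stood at 3.14 RPKM, 3.13 RPKM and 0.379 RPKM in controls 1 to 3 and at 8.84 RPKM, 0.855 RPKM and 6.02 RPKM in miR184 1 to 3. The groups overlapped, and the log2 change was 0.81 ± 0.68 (SE), with an adjusted p of 0.827 in limma. It was 0.29 without control 3, 0.33 without miR184 1, 1.54 without miR184 2 and 0.57 without miR184 3, and passed in none of these. In the miR499 table Epx was below the filter of a mean RPKM of 1, at 0.465 RPKM, 0.497 RPKM and 1.56 RPKM in the controls and at 0.612 RPKM, 0.347 RPKM and 0 in the miR499 libraries. The 0 in miR499 3 allows up to 0.0262 RPKM, while its table mates had 42 to 137 reads. Epx did not keep a constant ratio to Prg2, which was 35.02 to 54.3 in controls 1 to 3 and 128 to 894 in controls 4 to 6.

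The eosinophil-associated ribonucleases Ear1, Ear2 and Ear6 are close copies on chromosome 14, and the counting method is not given, so reads may be split between Ear1 and Ear2. Their coding sequences are 95.1% identical between Ear1 and Ear2, 87.4% between Ear1 and Ear6 and 87.7% between Ear2 and Ear6. The first 60 coding bases are printed to show how little separates them (GENCODE M21), with the 4 positions that are not the same in all in capitals.
Ear1: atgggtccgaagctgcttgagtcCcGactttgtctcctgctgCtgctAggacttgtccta
Ear2: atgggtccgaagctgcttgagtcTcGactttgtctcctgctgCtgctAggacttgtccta
Ear6: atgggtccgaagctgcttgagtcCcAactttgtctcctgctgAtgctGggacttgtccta
Of the stretches of 50 bases in each transcript, 57.4% of Ear1, 41.5% of Ear2 and 0.954% of Ear6 occur in another gene, so Ear6 is the member of the trio least open to misassignment.

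Ear6 had the smallest p of the 6 members tested with miR184. It stood at 0.250 RPKM, 0.790 RPKM and 0.609 RPKM in controls 1 to 3, which are 11, 34 and 25 reads, and at 8.83 RPKM, 2.10 RPKM and 1.42 RPKM in miR184 1 to 3, which are 360, 78 and 58 reads. All 3 miR184 libraries lay above all 3 controls, and miR184 1 stood far above the others. The log2 change was 1.45 ± 0.49 (SE), with a 95% interval from 0.31 to 2.60, an unadjusted p of 0.0198 and an adjusted p of 0.807 in limma. Of the 6 members tested Ear6 alone did not overlap, and it was higher, as were 7.30% of the 10372 genes tested. It averaged 0.550 RPKM in the controls and 4.12 RPKM with miR184. It thus met the filter only through the miR184 libraries, and a fall from that control level would not have been tested. Leaving out 1 library gave log2 changes from 0.84 ± 0.21 (SE, adjusted p = 0.612 in limma) without miR184 1 to 1.85 ± 0.44 (adjusted p = 0.257) without miR184 3. With a pseudocount of 0.1 the change was 2.36, and with limma voom on recovered reads 2.58, and neither passed (adjusted p = 0.641 and 0.782).

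With miR499, Ear6 was below the filter, at 0.709 RPKM, 1.09 RPKM and 1.29 RPKM in controls 4 to 6 and at 1.03 RPKM, 0.454 RPKM and 0 in miR499 1 to 3. The groups overlapped through miR499 1. Ear6 met the filter for the difference of the changes only through the miR184 libraries. The change with miR499 minus that with miR184 was -1.94 ± 0.61 (SE) in log2, with an adjusted p of 0.527 in limma. Without miR184 3 and miR499 3, a setting added after the data were seen, it was -2.08 ± 0.53 (adjusted p = 0.0321 in limma), where 11.6% of all genes passed. With rescaling by median ratios as well it was -1.95 ± 0.51 and did not pass (adjusted p = 0.0509 in limma).

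Ear2 stood at 1.25 RPKM, 1.07 RPKM and 0.0641 RPKM in controls 1 to 3 and at 5.29 RPKM, 2.55 RPKM and 0 in miR184 1 to 3. The groups overlapped because miR184 3 had 0 reads, and the log2 change was 0.72 ± 0.64 (SE), with an adjusted p of 0.827 in limma. It was 0.14 without miR184 1, 0.38 without control 3 and 1.47 ± 0.37 (adjusted p = 0.277 in limma) without miR184 3, and 0.28 with limma voom on recovered reads. In the miR499 table Ear2 stood at 0.249 RPKM, 1.008 RPKM and 1.13 RPKM in the controls and at 1.78 RPKM, 0.0314 RPKM and 0 in the miR499 libraries, the last pair being 1 read and none.

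Ear1 was below the filter in both tables, with 0 to 67 reads per library and 0 in 4 of 12. It stood at 1.26 RPKM, 1.35 RPKM and 0 in controls 1 to 3 and at 0.508 RPKM, 2.02 RPKM and 0 in miR184 1 to 3. In controls 4 to 6 it stood at 0.153 RPKM, 1.11 RPKM and 0.128 RPKM, and in miR499 1 to 3 at 2.14 RPKM, 0 and 0. The groups overlapped in both tables. Of 9 further ribonuclease genes of the family, 4 were in the tables and 0 met the filter, with a highest value of 0.739 RPKM and with Ear10 and Ear14 at 0 in every library.

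Siglecf encodes Siglec-F, the sialic acid-binding receptor that restrains eosinophils. It stood at 4.89 RPKM, 4.59 RPKM and 4.16 RPKM in controls 1 to 3 and at 5.14 RPKM, 5.71 RPKM and 1.07 RPKM in miR184 1 to 3. The libraries miR184 1 and miR184 2 lay above every control and miR184 3 below every one. The log2 change was -0.33 ± 0.42 (SE, adjusted p = 0.834 in limma) with all 6 libraries and 0.21 ± 0.08 (adjusted p = 0.664 in limma) without miR184 3, so its sign rested on that library.

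In the miR499 table Siglecf stood at 1.86 RPKM, 2.31 RPKM and 1.31 RPKM in the controls and at 2.03 RPKM, 1.47 RPKM and 3.54 RPKM in the miR499 libraries. The groups overlapped, with miR499 3 highest. The log2 change was 0.21 ± 0.26 (SE, adjusted p = 0.714 in limma) and -0.03 ± 0.16 without miR499 3, with a 95% interval from -0.40 to 0.34. Siglecf carries the miR-499-5p site printed above, and that interval spans a lower, an equal and a higher level.

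The gene most like Siglecf was Vsig10l, with r = 0.977 over the 12 libraries, and it lies on the same chromosome with 103619 bases between them. Vsig10l stood at 2.38 RPKM, 2.19 RPKM and 2.02 RPKM in controls 1 to 3 and at 2.58 RPKM, 2.45 RPKM and 0.370 RPKM in miR184 1 to 3. It stood at 1.004 RPKM, 1.11 RPKM and 0.898 RPKM in controls 4 to 6 and at 1.14 RPKM, 1.003 RPKM and 1.83 RPKM in miR499 1 to 3. Both genes were lowest in miR184 3 and, within the miR499 table, highest in miR499 3, the libraries that stood apart. Siglecf did not follow the granule genes, with r = -0.31 to Prg2 and -0.07 to Prg3.

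**Figure D3:**
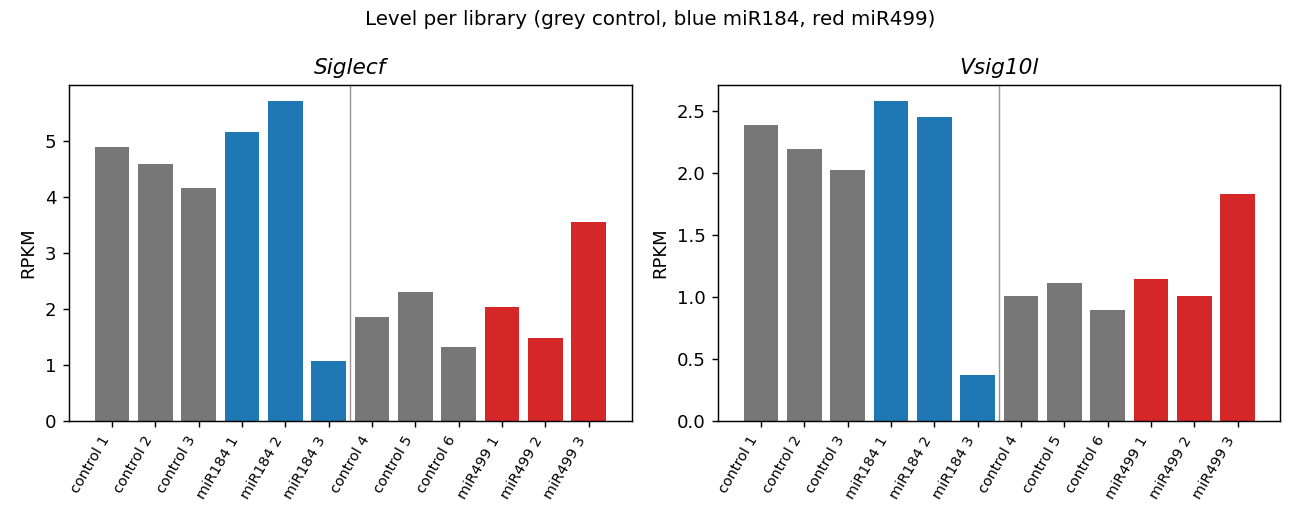
Level in RPKM (vertical axes, from 0) of Siglecf and Vsig10l in each of the 12 libraries (bars, one library each). Both are lowest in miR184 3, at 1.07 and 0.370 RPKM, and within the miR499 table both are highest in miR499 3.

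Il5ra encodes the IL-5 binding chain of the IL-5 receptor. It stood at 0.342 RPKM, 0.460 RPKM and 0.213 RPKM in controls 1 to 3 and at 0.590 RPKM, 0.640 RPKM and 0 in miR184 1 to 3, where the 0 allows up to 0.0195 RPKM. It stood at 0.506 RPKM, 0.602 RPKM and 0.367 RPKM in controls 4 to 6 and at 0.456 RPKM, 0.644 RPKM and 0.502 RPKM in miR499 1 to 3. The groups overlapped in both tables, and Il5ra was below the filter in both. Ccr3 had 3, 10 and 0 reads in controls 1 to 3 and 3, 0 and 0 in miR184 1 to 3. It had 0, 1 and 1 reads in controls 4 to 6 and 2, 6 and 2 in miR499 1 to 3, too few to compare.

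Taking the members together, 6 were tested with miR184, of which 5 had a higher and 1 a lower level and 0 passed, as did 0 of all 10372 genes. Of all genes tested there, 50.6% were higher. The split was 3 higher and 3 lower without control 3, the same without miR184 1, and 6 and 0 without miR184 3. At an unadjusted p under 0.05 the count was 1 of 6, against 4.58% of all genes tested. Ear2 and Ear6 averaged 0.795 and 0.550 RPKM in controls 1 to 3 and met the filter only through their miR184 values. The count of higher members is tilted by that. With miR499, 3 were tested, of which 1 was higher and 2 lower and 0 passed, as did 0 of 9815 genes. Of all genes tested there, 49.1% were higher. The split was 0 higher and 3 lower without miR499 3. At an unadjusted p under 0.05 the count was 1 of 3, against 10.1% of all genes. The remaining members were below the filter, namely Ear1, Ccr3 and Il5ra with miR184 and all but Prg2, Prg3 and Siglecf with miR499. The change with miR499 minus that with miR184 passed for 0 of 6 members, with 1 of 6 at an unadjusted p under 0.05, against 9.11% of 10214 genes.

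**Figure D4:**
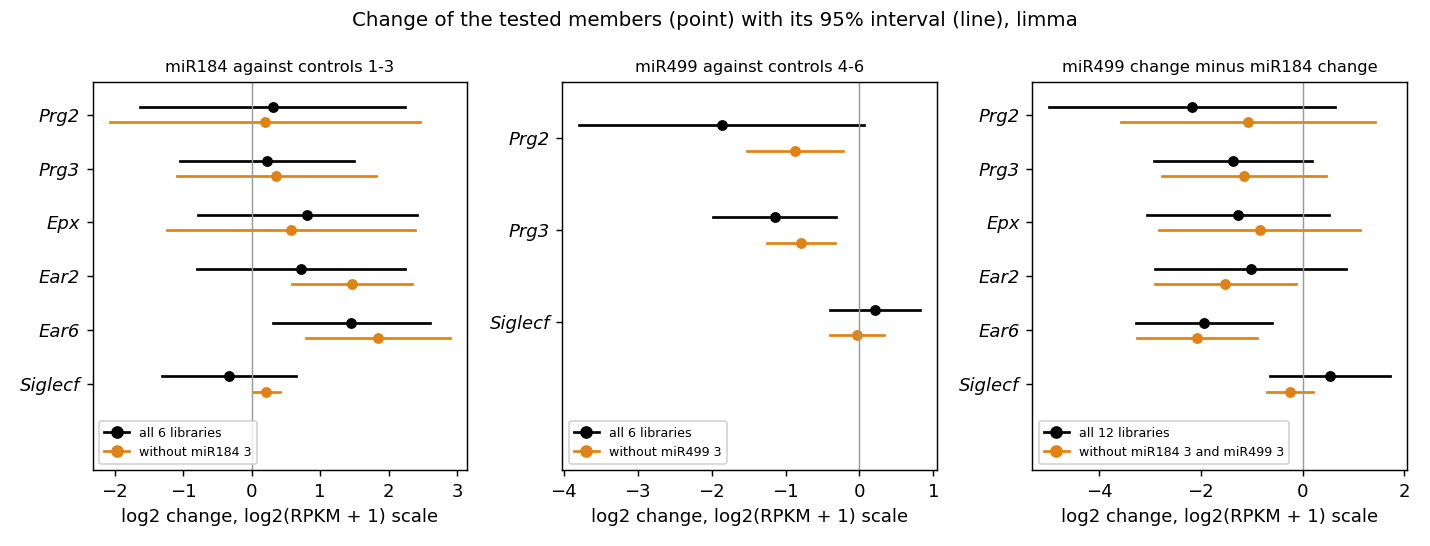
Change of each tested gene on the log2(RPKM + 1) scale (points) with its 95% interval from limma (lines), for miR184 (left), miR499 (middle) and the difference of the changes (right), with all libraries (black) and without the libraries that stood apart (orange). With all libraries the intervals of Ear6 with miR184 and Prg3 with miR499 lie off 0, as does that of Ear6 for the difference (-3.28 to -0.60), and none passes after adjustment.

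Replicates of one group spread more in the granule genes than in most genes. Over controls 1 to 3 the SD of log2(RPKM + 1) was 1.53 for Prg2, the fourth largest of the 10372 genes tested (rank 4), and 1.16 for Prg3 (rank 8), against a median of 0.0748. Epx followed with 0.91 (rank 20), whereas Siglecf had 0.10 (rank 3604). In the other control set Prg2 and Prg3 spread less and Siglecf more. Over controls 4 to 6 the SD was 0.53 for Prg2 (rank 35 of 9815), 0.42 for Prg3 (rank 74) and 0.26 for Siglecf (rank 288). Over the miR499 libraries it was 1.75 for Prg2 (rank 6), while Prg3, at 0.63, ranked 1394. The miR184 libraries gave 1.36 for Ear2, 1.27 for Epx, 1.14 for Prg2 and 1.08 for Ear6, against a median of 0.131. Ear2 and Ear6 met the filter only through their high miR184 values, so their large SD in that group is partly set by the filter. There Siglecf also spread widely, at 0.94 (rank 48), and more than the granule gene Prg3, at 0.44 (rank 658). Ear2 and Siglecf were lowest in miR184 3 and Prg2 in miR499 3, and no SD was computed without those libraries.

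**Figure D5:**
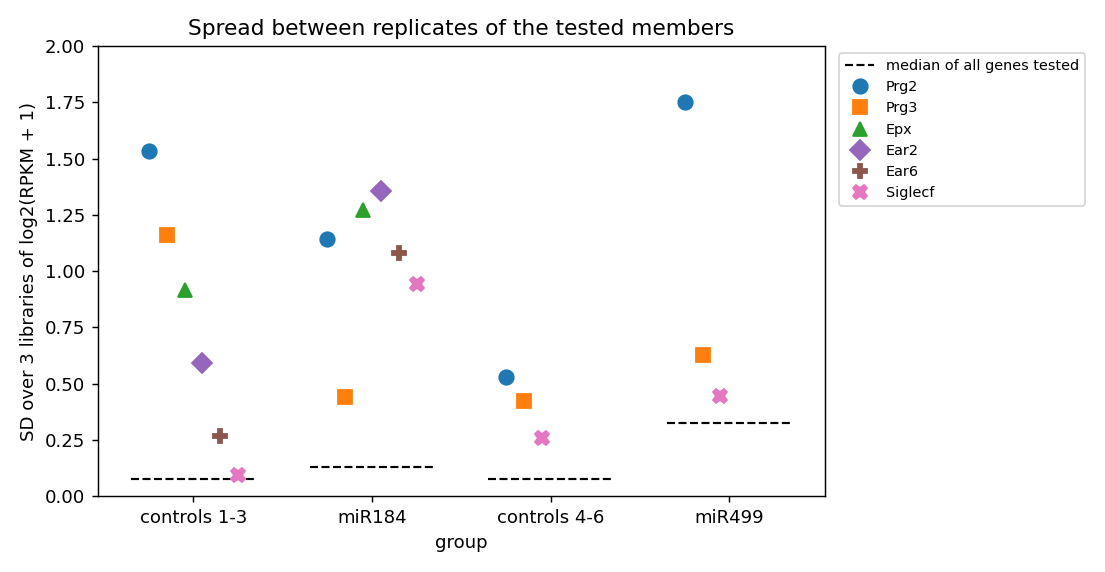
SD over 3 libraries of log2(RPKM + 1) (vertical axis) for the tested genes in each group (horizontal axis), with dashed lines at the median of all genes tested. Prg2 reaches 1.53 in controls 1 to 3 and 1.75 with miR499, against medians of 0.0748 and 0.327.

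The control sets of the tables also differed. Controls 4 to 6 held 3.22 times the mean Prg2 and 3.78 times the mean Prg3 of controls 1 to 3, and 0.401 times the mean Siglecf and 0.380 times the mean Epx. The set and its table cannot be told apart, and no difference between the sets was tested. Summed levels of 8 basophil markers were also higher in the second set, at 624 to 697 RPKM in controls 1 to 3 and 1726 to 2048 RPKM in controls 4 to 6. So were those of 5 megakaryocyte markers, at 522 to 600 RPKM and 962 to 1626 RPKM, and of mast cell markers, at 143 to 261 RPKM and 322 to 430.0 RPKM. HSPC sums were lower in the second set, at 410 to 512 RPKM and 254 to 307 RPKM. Sums of monocyte and macrophage, neutrophil primary granule, erythroid, and B and T cell markers were lower there as well, and late neutrophil sums overlapped. The highest levels in the basophil and megakaryocyte lists were those of Mcpt8, Prss34 and Pf4, at medians of 617, 271 and 729 RPKM over the 12 libraries. Gata2, also in the basophil list, was lower in the second set, at a mean of 26.8 against 40.5 RPKM. Within the miR499 group the basophil sums and Prg2 were both lowest in miR499 3, but miR499 1 and miR499 2 stood in the opposite order. The basophil sums were 1525 RPKM, 2496 RPKM and 976 RPKM in miR499 1 to 3. Sums of 9 mast cell markers ran from 280.0 to 557 RPKM with miR499, against 322 to 430.0 RPKM in controls 4 to 6. Late neutrophil markers summed to 821 to 1386 RPKM with miR499 and 428 to 736 RPKM in controls 4 to 6, and HSPC markers to 241 to 334 RPKM and 254 to 307 RPKM. S100a8 and S100a9 had the highest levels of the late neutrophil list, at medians of 487 and 208 RPKM. Mmp8, of the same list, was lower with miR499, at 8.31 to 10.5 RPKM against 13.1 to 16.0 RPKM. A sum follows its highest genes and does not speak for every gene of its list. Of these marker lists none had a gene at 0 in all libraries, and their part in the results was not tested.

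Besides the 9 genes, a list of 15 transcription factors of the lineage had 13 genes tested with miR184, of which 9 were higher, 4 lower and 0 passed, with a median log2 change of 0.07 against 0.00 over all genes. Those with the smallest p were Cebpa, a C/EBP factor needed for granulocytes, at 2.61 ± 1.002 RPKM in controls and 5.26 ± 1.86 RPKM with miR184 (SD, n = 3), and Gata2, at 40.5 ± 0.521 and 45.6 ± 3.46 RPKM. Without miR184 3 the split with miR184 was 8 higher and 5 lower. With miR499, 14 were tested, of which 9 were higher, 5 lower and 0 passed, with a median of 0.29 against -0.01. Ikzf1, which encodes Ikaros, stood at 7.40 ± 0.663 RPKM in controls and 11.5 ± 2.46 RPKM with miR499, and Gata2 at 26.8 ± 1.49 and 39.4 ± 10.2 RPKM. Without miR499 3 the split was 7 higher and 7 lower, and Gata2 rose by 0.31 (adjusted p = 0.0328 in limma), while Spi1 (PU.1) fell by 0.45 (adjusted p = 0.0130) and Xbp1 fell by 0.38 (adjusted p = 0.0154). These are 3 of 14 genes in a setting where 17.1% of all genes tested passed and 58.7% had a lower level.

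Genes of IL-5, IL-3 and GM-CSF receptor signalling divided 8 higher and 6 lower of 14 tested with miR184, where 0 passed and the median was 0.03. Csf2ra, the GM-CSF binding chain, and the kinase Jak2 had the smallest p, with log2 changes of 0.12 and 0.25. Of all genes tested with miR184, 50.6% were higher. Without miR184 3 the list divided 12 higher and 2 lower, where 52.4% of all genes were higher. With median-ratio scaling as well it divided 11 and 3, against 47.1%. With miR499 all 14 had a higher mean log2 level, against 49.1% of all genes, 0 passed, and the median was 0.40. The count was 11 higher and 3 lower with median-ratio scaling, and 11 and 3 without miR499 3, where 42.5% and 41.3% of all genes were higher. Csf2rb2, a mouse beta chain for IL-3, stood at 2.47 ± 0.206 RPKM in controls and 5.25 ± 1.36 RPKM with miR499 (SD, n = 3), a log2 change of 0.83 ± 0.19 (SE, adjusted p = 0.491 in limma). Without miR499 3 Csf2rb2 rose by 0.66 (adjusted p = 0.0115 in limma) and the kinase gene Pim1 by 0.48 (adjusted p = 0.0415), which are 2 of 14 genes where 17.1% of all genes tested passed. Stat5a, which carries the signal to the nucleus, had a log2 change of 0.69 ± 0.29.

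Other genes of eosinophil function and migration divided 6 higher and 6 lower of 12 tested with miR184 and 1 higher and 10 lower of 11 with miR499, with medians of 0.00 and -0.26, and 0 passed in either. Cd300a, an inhibitory receptor, stood at 32.2 ± 1.55 RPKM in controls 4 to 6 and 24.4 ± 3.67 RPKM with miR499, a log2 change of -0.39 ± 0.14. Itga4, an integrin chain, had 0.35 ± 0.16. With miR184, Cd300a had 0.15 ± 0.06 and Alox5, which starts leukotriene synthesis, 0.23 ± 0.11. The split was 6 higher and 6 lower without miR184 3. Without miR499 3 it was 2 higher and 9 lower, where 58.7% of all genes tested were lower, against 50.9% with all libraries.

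Among 9566 genes, those whose pattern over the 12 libraries was most like the mean of Prg2, Prg3 and Siglecf were Kin (r = 0.865), Bnip3l, a mitophagy receptor (0.847), Gar1, a small nucleolar ribonucleoprotein (0.841), Hist1h2ai (0.829) and Mmp8, a neutrophil collagenase (0.808). Apart from Prg3, the gene most like Prg2 was Hist1h2ai, a histone gene, with r = 0.912, and apart from Prg2 that most like Prg3 was Gar1, with r = 0.839. Siglecf itself had r = 0.01 to that mean, which was carried by Prg2 and Prg3.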

How the data were processed

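The authors deposited 2 tables of RPKM, per the file headers, one for each miRNA with 3 control libraries of its own. Per the submitters' processing notes the build is mm10. The aligner, the counter, their settings for strand and the annotation: not given in the sources used here. RNA of sorted cells was extracted with a PicoPure kit, per the labels' protocols. The number of unused columns of per-sample values was 0.

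Whole reads were recovered from the RPKM values, and 100% of values above 0 were whole within 0.01 reads. Positions and transcripts came from GENCODE M21 and sequences from RefSeq. Each miRNA was compared with its own controls by limma 3.58.1 (R 4.3.3) on log2(RPKM + 1) with an intensity trend, over genes with a mean RPKM of at least 1, at a Benjamini-Hochberg adjusted p under 0.05, two-sided. This scale understates the change of low genes. The difference of the changes was a contrast over all 12 libraries. On simulated data with 200 changed genes, 172 were recovered with 5 false calls for miR184 (10372 genes). For miR499 (9815 genes), 132 were recovered with 9 false calls. These counts describe the simulated data only. They give neither power nor error rates for the measured libraries, some of which stood apart as a whole. Replicate pairs differed by far more than counting noise (chi-square per degree of freedom 9.41 to 396).

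All 9 members are named, the 2 genes of each of 4 further lists with the smallest p in each comparison, those passing, and the genes most alike by Pearson r. The members and lists were chosen with earlier results of these data known. Genes that passed only without miR499 3 were named after their values were seen. Alternatives covered scaling, filter, pseudocount, limma voom on recovered reads, one fit of all libraries, a replicate block and each library left out. Python 3.11.15 with pandas 2.3.3, numpy 2.4.6 and matplotlib 3.10.9 was used.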

Additional observations from a re-analysis of the deposited data

Results flagged for a closer look

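Ccr3 in control 2, with 10 reads against 0 to 3 in the other controls, lay apart from the rest of the 6 controls: its gap to the next control was 0.707 of the whole range, above the critical value of 0.625. The rule was applied to 9 genes, and by chance it marks about 5% of groups. These controls join both sets, which averaged 0.0289 RPKM (controls 1 to 3) and 0.00542 RPKM (controls 4 to 6) for Ccr3. With so few reads and 2 sets joined, the mark does not show that control 2 is unusual.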

How the results depend on the processing

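With miR184, 0 genes passed, and 2 passed with the replicate block. Leaving out 1 library gave 0 to 2 genes, 3 to 6 members higher and 0 to 3 lower. Without miR184 3 and with median-ratio scaling 0 members were lower, and Siglecf was at 0.20. Prg2 ranged from -0.57 to 0.93 with a library left out, at -0.20 without miR184 1, Prg3 from -0.42 to 0.71, at -0.03 without miR184 1, and Siglecf from -0.63 to 0.21.

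With miR499, 0 genes passed, 426 with the replicate block and 1376 without miR499 3 and with scaling, and 0 to 1681 with a library left out. Members passing were 2 with the block (Prg2 at -1.16 with an adjusted p of 7.5e-15 and Prg3 at -1.003 with 1.4e-07 in limma, where 4.34% of genes passed), 1 without miR499 3 and with scaling, and 0 to 1 with a library left out. The block set miR499 1 and miR499 2 each beside 1 control. The library miR499 3 and the remaining control had no partner and did not enter these block changes. With 2 pairs a gene has little spread of its own, so these block p-values rest mainly on the spread that limma pools. They do not measure the replicate spread of Prg2 or Prg3. Members higher were 0 with the block, 0 without miR499 3 and with scaling, and 0 to 1 with a library left out. Siglecf was at -0.17 with the block and -0.0080 without miR499 3 and with scaling, and ranged from -0.031 to 0.41 with a library left out. The labels do not say that their numbers pair the samples. Same-numbered deviations correlated at 0.06, -0.05 and -0.03 in the miR184 table and at 0.20 and -0.35 in that of miR499, where the block rests on 2 pairs. A library that stands apart shifts every deviation of its group, so these values cannot settle whether samples were paired. Transcription factors passing were 1 with the block, 4 without miR499 3 and with scaling, and 0 to 3 with a library left out, and IL-5 signalling genes 1, 3 and 0 to 2.

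For the difference of the changes 0 genes passed, 1 with no filter, 1187 without miR184 3 and miR499 3, 516 with scaling as well, and 0 to 789 with a library left out. Without both libraries 1 member passed, and Siglecf was at -0.24, or -0.18 with scaling, and it ranged from -0.00016 to 0.85 with 1 library left out. The causes were not tested. Depth limits Ccr3, which had 10 reads or fewer per library.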
